A study of Bos taurus with 90 samples.

Results

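The miR-99/100 family (miR-99a-5p, miR-99b and miR-100) and the miR-125 family (miR-125a and miR-125b) were followed in 5 tissues of lactating dairy cows, as 5 of the 388 miRNAs listed in any tissue and of the 289 listed in all 5 tissues. The 5 miRNAs were chosen by their measured values in these same samples, namely their levels across tissues, the differences between diets in rumen and jejunum, and their correlation with each other. Those measures are therefore given as descriptions. Where the count of members past a threshold is printed for them, it stands beside the share of all miRNAs past it, and no support is drawn from it. Differences between diets in duodenum, liver and mammary gland were not named by the choice and were tested.

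Chinese Holstein cows in mid lactation received a diet based on rice straw, corn stover or alfalfa hay, 6 cows per diet, and each of the 18 cows was sampled in the epithelium of the rumen, the duodenum, the jejunum, the liver and the mammary gland. Small RNA libraries of the 90 samples were sequenced, and the deposited value of each miRNA is its read count scaled to the reads mapped to all annotated miRNAs and to a common total (CPM, the usual unit for such libraries). All cows were in lactation, none of the labels names a genetic change or a further agent, and the diets are named by their forage alone, so that the forage and whatever else differed between the diets cannot be told apart. The labels name the epithelium of rumen, duodenum and jejunum, and name liver and mammary gland without a part. Such samples can hold several cell types, in which fewer cells of a type and less RNA per cell cannot be told apart.

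Both families are old in animal evolution and are made from shared precursors together with let-7. miR-125 is the vertebrate relative of lin-4, the worm miRNA that sets the timing of development with let-7. Members of the miR-99/100 family are known to repress MTOR and the insulin-like growth factor 1 receptor, and miR-125 members are known to repress receptors of the ERBB family. Mature miRNAs of 1 family share the seed, the stretch near the 5′ end that pairs with target mRNAs, so they are expected to have many targets in common.

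The bovine genes lie in 3 clusters. In the RefSeq annotation of assembly ARS-UCD2.0, MIR99A follows MIR125B-2 and MIRLET7C, MIR100 follows MIR125B-1 and MIRLET7A-2, and MIR99B is followed by MIRLET7E and MIR125A. miR-125b thus has 2 genes, and its CPM is the sum of what both give. Each of the 5 members therefore has a relative in its own family on another cluster, and a partner of the other family on its own cluster. Mature sequences within a family are close, and the alignment allowed mismatches and several mappings per read, so reads could have been shared between miR-99a-5p, miR-99b and miR-100, or between miR-125a and miR-125b, which leaves the split between these relatives uncertain.

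The mapped reads per sample ranged from 937556 to 15621501, and the lowest level of any member in any sample still rested on 650 reads, so counting error was small for all 5. Marker miRNAs fitted the tissue labels with 1 exception. miR-122, the hepatocyte miRNA, was between 8671 and 12721 CPM in liver, and miR-192, abundant in intestinal epithelium and liver, was between 119672 and 327244 CPM in duodenum and jejunum. miR-205, a miRNA of stratified and mammary epithelium, was between 23016 and 52132 CPM in rumen but also reached 1525 CPM in the liver library of alfalfa hay cow 2, against at most 13.0 CPM in the other 17 liver libraries. The members of that library lay within the range of the other 17. In each tissue 1 or 2 libraries stood apart from the rest by their correlation over all other miRNAs, and in mammary gland the 5 rice straw libraries of cows 1 to 5 and the alfalfa hay library of cow 1 had a median Spearman correlation with the rest between 0.905 and 0.955, below the 0.974 to 0.984 of the other 12. Tests of the diets and the mammary correlations are in part also given without these libraries. The levels, shares and family ratios include all libraries unless stated otherwise.

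**Figure D1:**
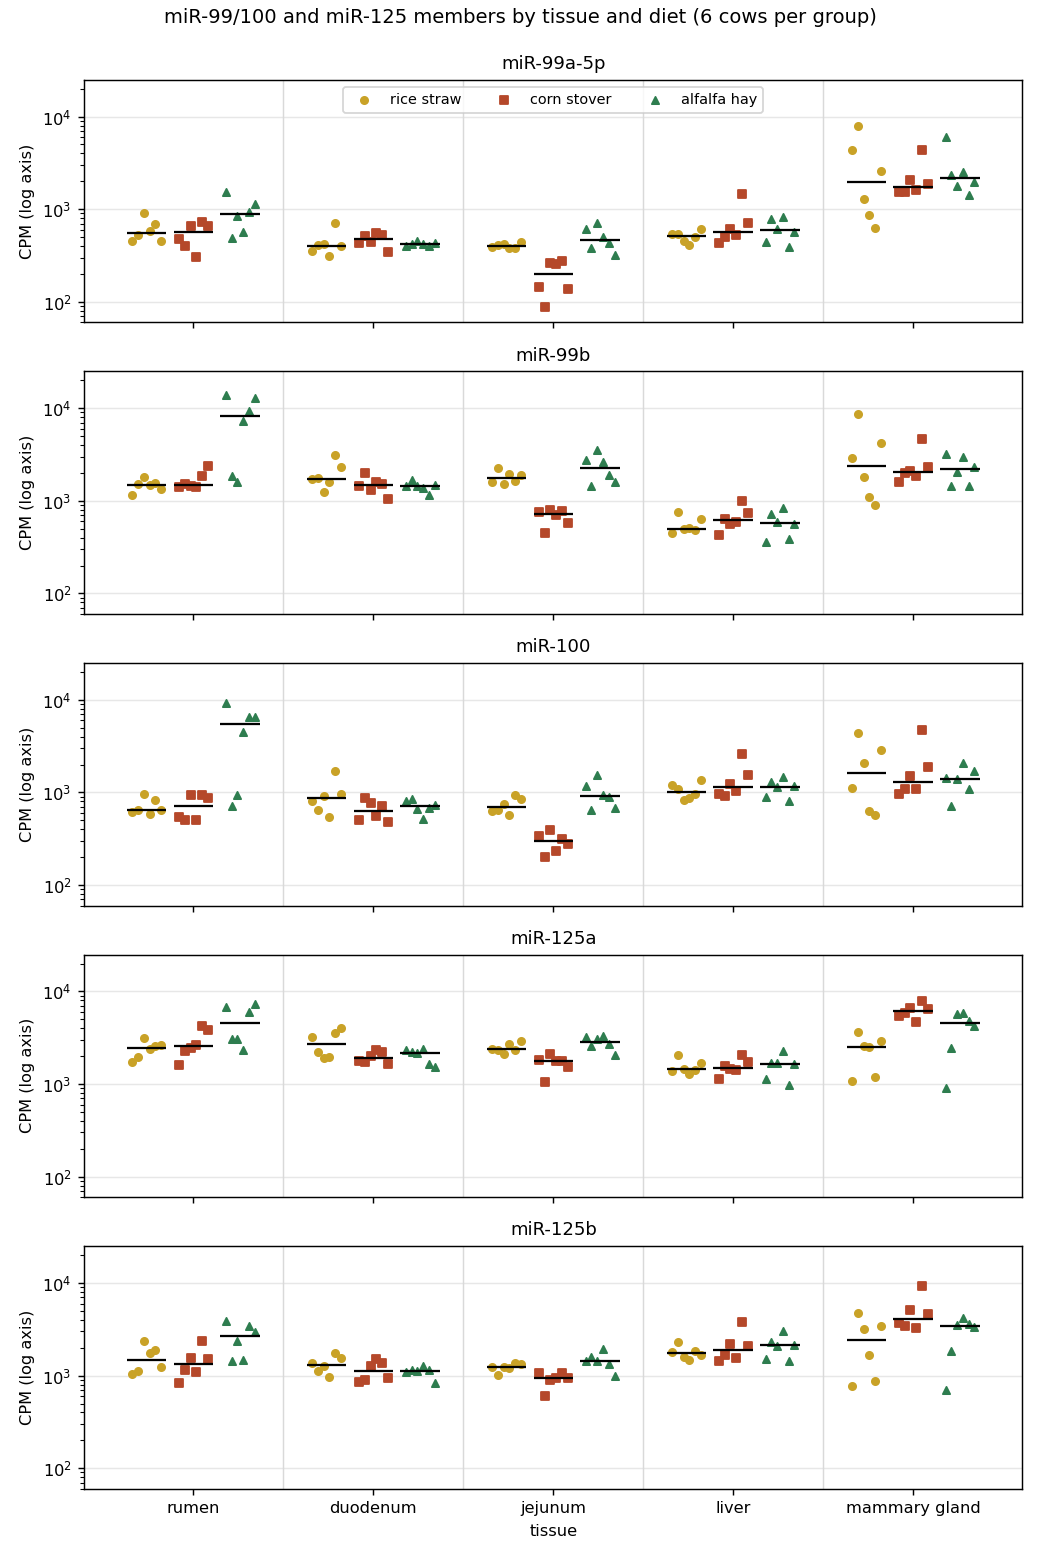
CPM of each member (rows of panels, log axis) by tissue, with 1 point per cow, 6 cows per diet, and a black line at the median of each group. In rumen, 4 alfalfa hay cows lie above all others in miR-99b and miR-100, and in jejunum the corn stover cows lie lowest in miR-99a-5p, miR-99b and miR-100.

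All 5 members were present in all 90 samples, from 88.5 CPM of miR-99a-5p in a jejunum to 14009 CPM of miR-99b in a rumen. The most even member was miR-125a, whose highest sample was 8.82 times its lowest, and the least even was miR-99a-5p, whose highest sample was 89.4 times its lowest. miR-99a-5p was the mammary member. Its mean was 2591 ± 1899 CPM (SD, n = 18) in mammary gland, 685 ± 298 in rumen, 607 ± 245 in liver, 441 ± 88.4 in duodenum and 364 ± 158 in jejunum. In this order only the step from mammary gland to rumen, by 3.78 times, was larger than the spread, taken here as the larger SD of log2(CPM + 1) of the 2 tissues. The single mammary samples ran from 620 to 7912 CPM and overlapped with rumen, which ran from 307 to 1530 CPM. The 12 mammary libraries without a low correlation ran from 1413 to 4354 CPM and still overlapped with rumen.

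miR-99b was low in liver. It averaged 3662 ± 4197 CPM (SD, n = 18) in rumen, 2641 ± 1788 in mammary gland, 1625 ± 485 in duodenum, 1597 ± 844 in jejunum and 596 ± 164 in liver. Only the step from jejunum down to liver, by 2.68 times, exceeded the spread. The rumen SD was larger than its mean because the cows fell far apart there, with a median of 1593 CPM and a highest value of 14009 CPM.

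miR-100 varied less between tissues, with means of 2061 ± 2696 CPM (SD, n = 18) in rumen, 1743 ± 1179 in mammary gland, 1191 ± 419 in liver, 763 ± 278 in duodenum and 668 ± 354 in jejunum. The step from liver to duodenum, by 1.56 times, exceeded the spread and the others did not. The order of rumen and mammary gland turned round on the log scale, since the rumen median of 850 CPM was below the mammary median of 1408 CPM.

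The miR-125 members were the more even ones. miR-125a averaged 4149 ± 2093 CPM (SD, n = 18) in mammary gland, 3339 ± 1711 in rumen, 2318 ± 610 in jejunum, 2270 ± 678 in duodenum and 1559 ± 343 in liver, and only the step from duodenum to liver, by 1.46 times, exceeded the spread. miR-125b averaged 3395 ± 1989 CPM (SD, n = 18) in mammary gland, 2003 ± 613 in liver, 1864 ± 877 in rumen, 1205 ± 308 in jejunum and 1192 ± 253 in duodenum, and no neighbours in this order differed beyond their spread. Liver thus held the lowest mean of miR-99b and miR-125a, which share a cluster, while miR-99a-5p, miR-100 and miR-125b, which come from the other clusters, were each lowest in the small intestine.

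The make-up of each family followed the same line. The shares compare CPM, which carry no correction for how well each miRNA is ligated and amplified. miR-99b made up 55.9% ± 5.14 (SD, n = 18) of the miR-99/100 family in rumen, 57.3% ± 4.30 in duodenum and 60.1% ± 3.70 in jejunum, but 25.2% ± 3.25 in liver, where miR-100 held 49.7% ± 2.85. In mammary gland miR-99b held 38.2% ± 3.93 and miR-99a-5p 36.3% ± 8.64. miR-125a made up 63.9% ± 4.79 of its family in rumen, 65.2% ± 3.42 in duodenum, 65.6% ± 2.94 in jejunum and 55.5% ± 6.07 in mammary gland, against 44.1% ± 3.58 in liver. For miR-99b the liver shares, from 19.4% to 32.0%, did not overlap with the 47.3% to 68.1% of rumen, duodenum and jejunum. For miR-125a the liver shares, from 34.9% to 50.3%, likewise lay below the 56.6% to 71.9% of those tissues.

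**Figure D2:**
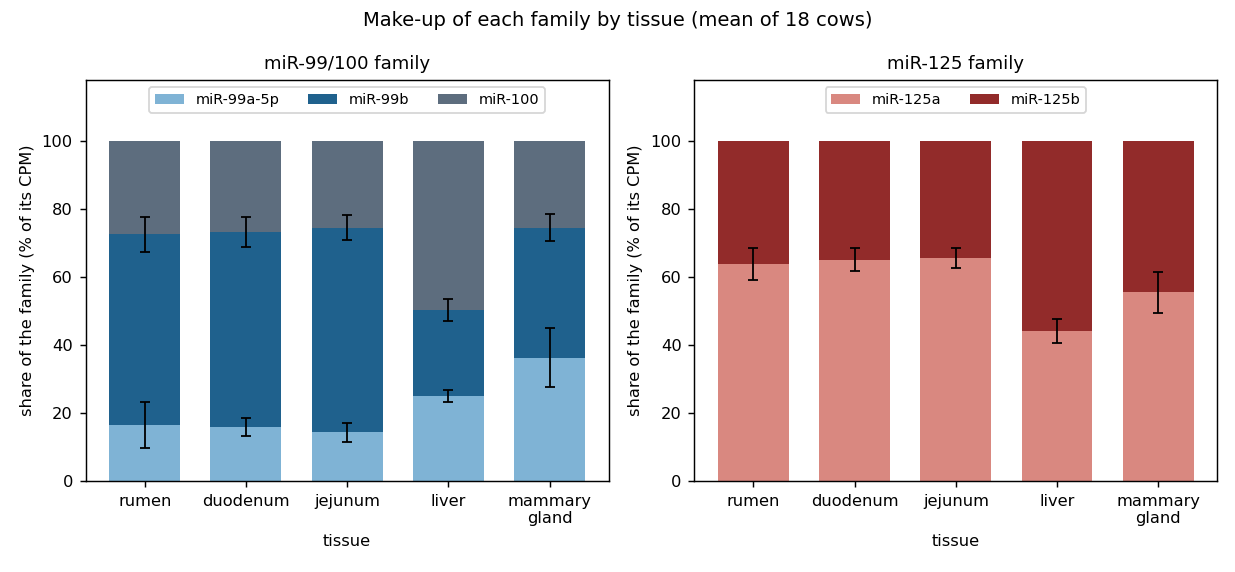
Mean share of each member in the summed CPM of its family, for 18 cows per tissue, as stacked bars from 0 to 100%, with error bars of 1 SD at the top of each share except the last. miR-99b and miR-125a hold the largest shares in rumen, duodenum and jejunum, and miR-100 and miR-125b in liver.

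Together the 3 members of the miR-99/100 family took 0.641% of the mapped reads in rumen and 0.698% in mammary gland, and between 0.239% and 0.283% in the other tissues. The miR-125 family took 0.754% in mammary gland, 0.520% in rumen and between 0.346% and 0.356% elsewhere. The ratio of the first family to the second had medians from 0.653 in liver to 0.786 in duodenum. It ranged from 0.544 to 0.861 in liver, and from 0.454 to 6.71 in mammary gland. The 6.71 was that of alfalfa hay cow 1, whose mammary library had a low correlation with the rest. The mammary libraries on corn stover, none of them of low correlation, ran from 0.454 to 0.797. With all libraries kept in, liver held the families in the narrowest proportion of the 5 tissues and mammary gland in the widest.

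In rumen the alfalfa hay cows carried more of the miR-99/100 family, and they did so as a subset. miR-99b was between 1167 and 1815 CPM (median 1495) in the 6 rice straw cows, between 1393 and 2401 CPM (median 1471) in the 6 corn stover cows, and between 1610 and 14009 CPM (median 8254) in the 6 alfalfa hay cows. Alfalfa hay cows 1, 4, 5 and 6 had 14009, 7216, 9291 and 13008 CPM, and cows 2 and 3 had 1870 and 1610 CPM, within the range of the other diets.

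miR-100 split the same cows. It was between 592 and 972 CPM (median 648) on rice straw and between 503 and 948 CPM (median 710) on corn stover. Alfalfa hay cows 1, 4, 5 and 6 had 9339, 4485, 6522 and 6500 CPM, while cows 2 and 3 had 708 and 937 CPM. The 4 high cows did not overlap with the other 14 in either miRNA.

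The fitted difference between alfalfa hay and rice straw on the log2(CPM + 1) scale was 1.97 (SE 0.43) for miR-99b and 2.21 (SE 0.50) for miR-100, and between alfalfa hay and corn stover 1.82 (SE 0.43) and 2.23 (SE 0.50). miR-99a-5p, miR-125a and miR-125b differed less, by 0.54 (SE 0.27), 0.88 (SE 0.28) and 0.68 (SE 0.29) between alfalfa hay and rice straw. Their groups overlapped. miR-125a ran from 1731 to 3130 CPM (median 2477) on rice straw, from 1610 to 4189 CPM (median 2548) on corn stover and from 2350 to 7394 CPM (median 4563) on alfalfa hay. miR-125b ran from 1049 to 2395 CPM (median 1491), from 829 to 2364 CPM (median 1334) and from 1445 to 3939 CPM (median 2671) on the same diets. Corn stover and rice straw differed little in rumen, by between -0.18 and 0.19 for the 5 members. The median difference between alfalfa hay and rice straw over all 335 miRNAs tested was -0.18.

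The 3 diets of a tissue were tested together (limma, Benjamini-Hochberg over all miRNAs of the tissue, threshold 0.05). Within a tissue, every adjusted p printed beside a difference between 2 diets is from this joint test, not from a test of that pair. In it 2 of the 5 members passed in rumen, miR-99b and miR-100, beside 1.49% of the 335 miRNAs tested. Since the choice of the members used this contrast, nothing is read from that count. The side of the threshold depended on single libraries, since leaving out any 1 of 12 of the 18 rumen libraries, among them each of the 4 high alfalfa hay libraries, removed both members from the list. In these 12 removals the difference stayed between 1.72 and 2.03 for miR-99b (alfalfa hay minus rice straw) and between 1.93 and 2.32 for miR-100 (alfalfa hay minus corn stover). Without all 4 high libraries the difference between alfalfa hay and rice straw fell to 0.24 (SE 0.21) for miR-99b and 0.21 (SE 0.28) for miR-100.

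miR-1271 also set these 4 libraries apart. It was between 346 and 759 CPM in them and between 12.4 and 26.9 CPM in the other 14. The 5 miR-200 family miRNAs of epithelium summed to between 16901 and 35851 CPM in the 4 and, with overlap, between 12824 and 21020 CPM in the rest. None of these 5 passed between the diets, and their median difference was 0.17 between alfalfa hay and rice straw. The 5 leukocyte miRNAs summed to between 2931 and 6651 CPM against 5744 and 9560 CPM, also with overlap. Of these 1 passed, miR-155, lower on alfalfa hay than on rice straw by 1.18 (SE 0.26, limma adjusted p = 0.0428). The mapped reads were between 4027017 and 9024345 against 2337879 and 6211060. The part of these in the result was not tested.

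In jejunum the corn stover cows carried less of all 5 members. miR-99b was between 444 and 792 CPM (median 725) in the 6 corn stover cows, between 1519 and 2250 CPM (median 1759) in the rice straw cows and between 1451 and 3520 CPM (median 2275) in the alfalfa hay cows. miR-100 was between 202 and 396 CPM (median 297) on corn stover, between 568 and 943 CPM (median 698) on rice straw and between 639 and 1525 CPM (median 923) on alfalfa hay. In both the lowest cow of the other diets lay well above the highest corn stover cow.

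miR-99a-5p was between 88.5 and 279 CPM (median 199) on corn stover, between 381 and 443 CPM (median 403) on rice straw and between 320 and 715 CPM (median 466) on alfalfa hay, again with no overlap. The miR-125 members shifted less and their groups touched. miR-125a was between 1044 and 2085 CPM (median 1772) on corn stover, between 2130 and 2948 CPM (median 2371) on rice straw and between 2071 and 3322 CPM (median 2872) on alfalfa hay, so that 1 alfalfa hay cow fell just inside the corn stover range. miR-125b was between 605 and 1071 CPM (median 935) on corn stover, between 1014 and 1353 CPM (median 1242) on rice straw and between 995 and 1958 CPM (median 1442) on alfalfa hay.

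The difference between alfalfa hay and corn stover on the log2(CPM + 1) scale was 1.73 (SE 0.20) for miR-99b, 1.71 (SE 0.20) for miR-100 and 1.40 (SE 0.24) for miR-99a-5p, against 0.77 (SE 0.15) for miR-125a and 0.67 (SE 0.15) for miR-125b. The miR-99/100 members thus moved further than the miR-125 members, also between corn stover and rice straw, where the differences were -1.44 (SE 0.20), -1.33 (SE 0.20) and -1.17 (SE 0.24) for miR-99b, miR-100 and miR-99a-5p and -0.59 (SE 0.15) and -0.44 (SE 0.15) for miR-125a and miR-125b. Alfalfa hay and rice straw differed by between 0.18 and 0.37. Both contrasts share the corn stover samples. Over all 336 miRNAs tested the median difference between alfalfa hay and corn stover was 0.17, with 90% of them between -0.67 and 0.88.

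All 5 members passed the test of the diets in jejunum, beside 23.8% of the 336 miRNAs tested, and every corn stover cow lay below every other cow in 3 of the 5, beside 3.87% of the miRNAs. The choice of the members used this contrast, so nothing is read from these counts. The background was higher in jejunum than in any of the other 4 tissues. The corn stover libraries of jejunum were not alike. Those of cows 1, 2 and 6 had the lowest median correlations with the rest of jejunum, 0.9747, 0.9715 and 0.9748. Their CPM outside the listed miRNAs was 281, 440 and 221, against at most 72.6 in the other jejunum libraries. miR-10a ran from 26636 to 95217 CPM on corn stover. The part of this in the result was not tested.

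Endothelial miRNAs also moved in jejunum. The 2 endothelial miRNAs, the arms of miR-126, summed to between 8000 and 17708 CPM on corn stover, between 19516 and 29441 CPM on rice straw and between 18498 and 28030 CPM on alfalfa hay, without overlap, and both passed the test (limma adjusted p = 0.000721 and 0.0130). Of the 6 miRNAs of stroma and smooth muscle 1 passed, miR-145, lower on corn stover than on alfalfa hay by 0.75 (SE 0.16, limma adjusted p = 0.00422), while the sum of the 6 was between 189857 and 304820 CPM on corn stover and between 153040 and 256932 CPM on the other diets. Of 3 miRNAs of striated muscle miR-1 passed, higher on alfalfa hay than on corn stover by 1.20 (SE 0.19, limma adjusted p = 8.4e-05). None of the 5 leukocyte, 5 epithelial, 3 intestinal epithelial and 3 red blood cell miRNAs passed. The leukocyte list, for example, summed to between 18568 and 29324 CPM on corn stover and to between 20154 and 31481 CPM on the other diets. The part of these cell types in the result was not tested.

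**Figure D3:**
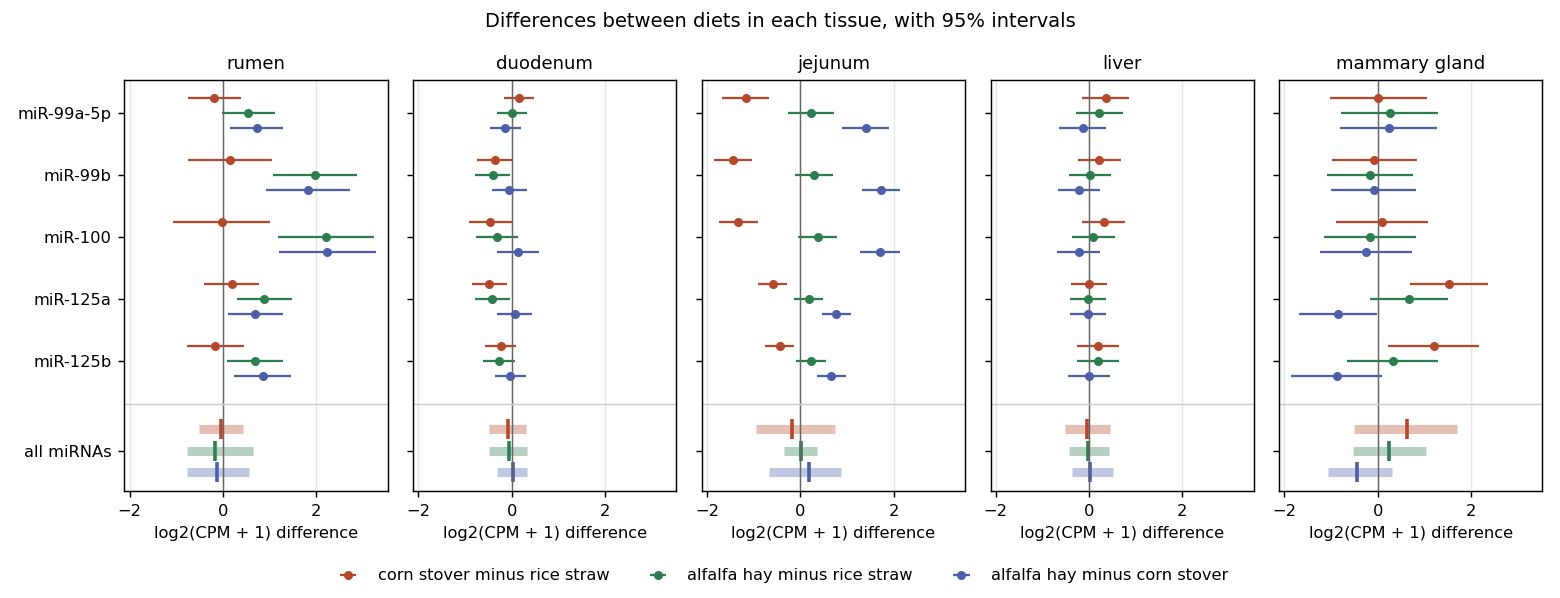
Differences between diets in log2(CPM + 1) for each member, 1 panel per tissue, with points at the fitted difference and bars for its 95% interval. The bars at the foot of each panel span the middle 90% of all miRNAs tested in that tissue and the tick marks their median. The members lie outside that span mainly in rumen and jejunum, the contrasts by which they were chosen.

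The jejunum was also set against the duodenum, the neighbouring part of the small intestine, in the same cows. The jejunum corn stover samples enter this contrast, so it is not independent of the choice of the members and is given without a test. Averaged over the diets, jejunum minus duodenum was -0.41 (SE 0.12) for miR-99a-5p, -0.33 (SE 0.13) for miR-100, -0.19 (SE 0.11) for miR-99b, 0.03 (SE 0.10) for miR-125a and 0.00028 (SE 0.092) for miR-125b on the log2(CPM + 1) scale. Of all 331 miRNAs tested, 16.3% passed as higher and 14.5% as lower in jejunum. The values within each diet were as follows. Within cows fed corn stover, jejunum minus duodenum was -1.36 ± 0.65 (SD, n = 6) for miR-99a-5p, -1.14 ± 0.52 for miR-99b and -1.14 ± 0.53 for miR-100, with 6 of 6 cows lower in each. Within cows fed alfalfa hay it was 0.17 ± 0.43 (SD, n = 6), 0.63 ± 0.58 and 0.42 ± 0.60. miR-125a and miR-125b were higher in jejunum in 6 of 6 alfalfa hay cows, by 0.46 ± 0.15 and 0.40 ± 0.15. The miR-10 miRNAs, whose seed is close to that of the miR-99/100 family, went the other way, with miR-10a higher in jejunum by 1.69 (SE 0.25) and miR-10b by 1.08 (SE 0.19).

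In duodenum none of the 5 members passed the test of the diets (limma), nor did any of the 336 miRNAs tested, a share of 0%. At an unadjusted p under 0.05 the count was 36 miRNAs, 1 of them a member, miR-125a. miR-125a was between 1921 and 3991 CPM (median 2709) on rice straw, between 1644 and 2334 CPM (median 1892) on corn stover and between 1540 and 2418 CPM (median 2177) on alfalfa hay, and the groups overlapped. Corn stover minus rice straw was -0.48 (SE 0.18), and the joint test of the diets gave limma adjusted p = 0.388. miR-99b and miR-100 were also higher on rice straw in the mean, with corn stover minus rice straw at -0.36 (95% interval -0.74 to 0.020) and -0.46 (95% interval -0.91 to -0.0032), and neither passed (limma adjusted p = 0.483 and 0.557). miR-99b ran from 1242 to 3155 CPM (median 1724) on rice straw, from 1042 to 2001 CPM (median 1487) on corn stover and from 1141 to 1692 CPM (median 1434) on alfalfa hay. For miR-99a-5p and miR-125b the fitted differences between diets lay between -0.27 and 0.15. In duodenum, corn stover minus rice straw was thus below 0 in 4 of the 5 members and 0.15 (SE 0.15) in miR-99a-5p.

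In liver none of the 5 members passed (limma), nor did any of the 326 miRNAs tested, a share of 0%, and 17 miRNAs and 0 members had an unadjusted p under 0.05. The differences between diets ranged from -0.23 to 0.36 over the members. miR-125a was the flattest, at 1288 to 2082 CPM (median 1446) on rice straw, 1142 to 2052 CPM (median 1506) on corn stover and 976 to 2292 CPM (median 1655) on alfalfa hay. Its interval of corn stover minus rice straw ran from -0.39 to 0.38, which bounds the difference at this spread. miR-100, the leading member of its family in liver, was between 832 and 1377 CPM (median 1021), between 916 and 2616 CPM (median 1140) and between 799 and 1479 CPM (median 1157) on the same diets. Its difference between corn stover and rice straw was 0.32 (SE 0.22), and miR-100 did not pass the joint test of the diets (limma adjusted p = 0.896). miR-125b, the leading member of its family in liver, was between 1478 and 2321 CPM (median 1742), between 1449 and 3821 CPM (median 1895) and between 1430 and 3013 CPM (median 2125). The highest value of both belonged to corn stover cow 5, which was the highest of its group in all 5 members.

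In mammary gland none of the 5 members passed the test of the diets (limma), beside 3.72% of the 323 miRNAs tested. At an unadjusted p under 0.05 the count was 101 miRNAs, 2 of them members, miR-125a and miR-125b. miR-125a was between 1072 and 3601 CPM (median 2542) on rice straw, between 4699 and 7897 CPM (median 6176) on corn stover and between 895 and 5797 CPM (median 4511) on alfalfa hay. Every corn stover cow lay above every rice straw cow, which held for 1 of the 5 members and for 14.9% of the miRNAs. Corn stover minus rice straw was 1.53 (SE 0.41, 95% interval 0.69 to 2.36), and over 28 alternatives it ran from 0.60 to 1.68. The joint test of the diets gave limma adjusted p = 0.0628 for miR-125a, and from 0.00500 to 0.205 over the alternatives.

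miR-125b was between 771 and 4690 CPM (median 2453) on rice straw, between 3232 and 9305 CPM (median 4122) on corn stover and between 693 and 4148 CPM (median 3438) on alfalfa hay. Its difference between corn stover and rice straw was 1.20 (SE 0.47), and miR-125b did not pass the joint test of the diets (limma adjusted p = 0.157). Most mammary miRNAs shifted the same way, since the median difference between corn stover and rice straw over the 323 miRNAs was 0.63. With upper-quartile scaling of the libraries the difference was 0.60 for miR-125a and 0.28 for miR-125b.

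The groups of the miR-99/100 members overlapped. miR-99b was between 894 and 8605 CPM (median 2354) on rice straw, between 1602 and 4625 CPM (median 2063) on corn stover and between 1433 and 3197 CPM (median 2181) on alfalfa hay. miR-99a-5p spread as widely on rice straw, from 620 to 7912 CPM (median 1943), and ran from 1540 to 4354 CPM (median 1732) on corn stover and from 1413 to 6043 CPM (median 2150) on alfalfa hay. Corn stover minus rice straw was -0.08 (SE 0.44) for miR-99b, 0.09 (SE 0.48) for miR-100 and 0.01 (SE 0.50) for miR-99a-5p, with 95% intervals reaching from about -1.03 to 1.07 in all. The rice straw libraries were spread widely, and the intervals were wide. Without the 4 libraries of lowest depth these differences were -0.83 (SE 0.41), -0.91 (SE 0.44) and -0.57 (SE 0.44), still without passing (limma adjusted p = 0.182, 0.162 and 0.549).

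The mammary results rest in part on the 6 libraries with a low correlation, 5 of them from rice straw. Without these 6 the difference of miR-125a between corn stover and rice straw was 1.05, with rice straw cow 6 alone left in its group. Without the 4 libraries of lowest depth it was 1.01 (SE 0.25), and miR-125a passed the joint test of the diets (limma adjusted p = 0.0245). The alfalfa hay library of cow 1 does not enter this difference, which stayed at 1.53 without that library. The joint test of the diets then gave limma adjusted p = 0.00500. In the 6 libraries the 5 epithelial miR-200 miRNAs summed to between 10598 and 45143 CPM, against 35135 and 67448 CPM in the other 12. The 6 miRNAs of stroma and smooth muscle summed to between 134574 and 233123 CPM against 73918 and 206162 CPM. That sum was mostly miR-143, which ran from 69396 to 226993 CPM over the 18 mammary libraries. Of the 6, 5 had a lower median in the low-correlation libraries than in the other 12. The mapped reads were between 937556 and 8364602 against 4421565 and 14328839. Of the marker miRNAs, miR-429 of the miR-200 family and miR-144 of red blood cells passed between the diets (limma adjusted p = 0.0434 for both). Both were higher on corn stover than on rice straw, by 2.07 (SE 0.48) and 2.01 (SE 0.46). They were 1 of the 5 miR-200 family miRNAs and 1 of the 3 red blood cell miRNAs. The sum of the 5 averaged 47833 CPM on corn stover and 28693 CPM on rice straw. The sum of the 3 went the other way in the mean, at 1780 CPM on corn stover and 2540 CPM on rice straw. The part of these in the result was not tested.

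Whether the diets acted differently on a member in duodenum, liver and mammary gland was tested as an interaction of diet and tissue over 54 samples. The same 18 cows gave all of these tissues, and the main fit held no term for the cow. It also took a single residual variance over tissues of unlike spread. The SD of log2(CPM + 1) of miR-125a was 0.95 in mammary gland, 0.38 in duodenum and 0.32 in liver. The adjusted p can therefore be too low for differences that lie in mammary gland. miR-125a passed (limma adjusted p = 0.00529), beside 21.0% of the 300 miRNAs tested, and it was 1 of the 5 members to do so. Its corn stover minus rice straw difference was -0.48 (SE 0.18) in duodenum, -0.0044 (SE 0.19) in liver and 1.53 (SE 0.41) in mammary gland. The call ended with upper-quartile scaling (limma adjusted p = 0.0702) and without the 6 mammary libraries with a low correlation (0.0707), while over all 8 alternatives the adjusted p ran from 0.00422 to 0.0707. miR-125b (0.125), miR-100 (0.731), miR-99b (0.836) and miR-99a-5p (0.931) did not pass.

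The members rose and fell together from cow to cow in most tissues, as a description over 18 samples that share a library, a depth and a total of CPM. In jejunum Pearson's r of log2(CPM + 1) was between 0.79 and 0.95 over the 10 pairs, in liver between 0.70 and 0.96, in rumen between 0.71 and 0.98 and in duodenum between 0.24 and 0.82. Over all pairs of miRNAs the median r was 0.16 in jejunum, 0.05 in liver, 0.05 in rumen and 0.18 in duodenum. About the diet means, which takes out differences between diets, r was between 0.42 and 0.79 in jejunum and between 0.52 and 0.95 in rumen, while in liver it was between 0.74 and 0.96.

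The closest pairs differed by tissue. In rumen it was miR-99b with miR-100, members of 1 family on separate clusters (r = 0.98, Spearman's rho = 0.82), the 2 miRNAs that marked the 4 high alfalfa hay cows. In liver it was miR-99a-5p with miR-100 (r = 0.96, rho = 0.93). Liver also held high values within each cluster, with r = 0.92 for miR-99b with miR-125a (rho = 0.92), 0.92 for miR-99a-5p with miR-125b (rho = 0.87) and 0.86 for miR-100 with miR-125b (rho = 0.76). In duodenum the highest r was that of miR-125a with miR-125b, 0.82 (rho = 0.78), but a few libraries carried much of the rest there. The lowest rho of the 10 duodenum pairs was 0.08, and without the 2 samples farthest from the median r ran from -0.16 to 0.72, with that of miR-99a-5p and miR-100 going from 0.55 to 0.02.

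**Figure D4:**
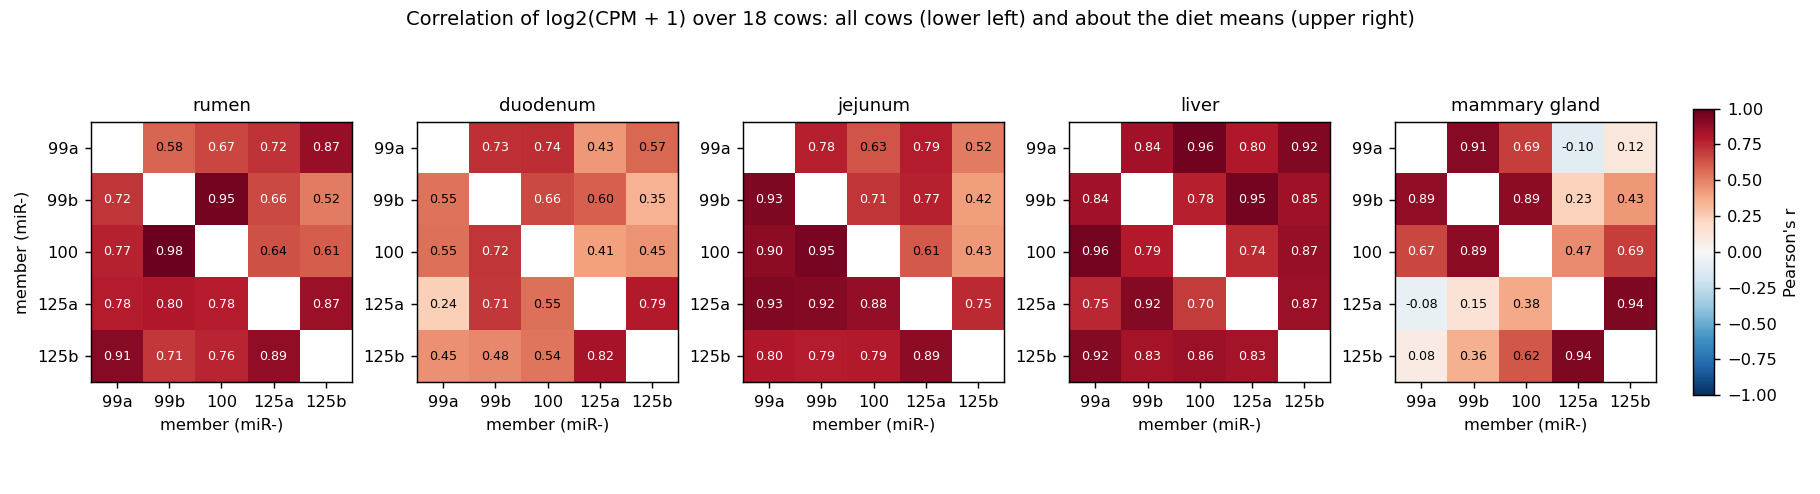
Pearson's r of log2(CPM + 1) between members over the 18 cows of each tissue, from all values in the lower left triangle and from deviations about the diet means in the upper right triangle, on a colour scale from -1 to 1. In mammary gland the pairs within a family are dark and those between families mostly paler.

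In mammary gland r was lower between the families than within them for most pairs, with miR-100 and miR-125b as the exception. Within a family r was between 0.67 and 0.94, with 0.89 for miR-99a-5p and miR-99b, 0.89 for miR-99b and miR-100 and 0.94 for miR-125a and miR-125b. Between the families it was between -0.08 and 0.62, and the partners from 1 cluster had 0.15 for miR-99b and miR-125a, 0.08 for miR-99a-5p and miR-125b and 0.62 for miR-100 and miR-125b, the last close to the 0.67 of miR-99a-5p and miR-100. The median r over all pairs of miRNAs in mammary gland was 0.42. About the diet means the values were much the same, 0.69 to 0.94 within and -0.10 to 0.69 between families.

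The mammary diets differed in this pattern, and the low-correlation libraries took part in it. The r of miR-99a-5p with miR-125a was 0.84 over the 6 corn stover cows, 0.30 over the 6 rice straw cows and -0.87 over the 6 alfalfa hay cows. Among the alfalfa hay cows, cow 1 had the highest miR-99a-5p of 6043 CPM and the lowest miR-125a of 895 CPM. Without the 6 low-correlation libraries, r over the other 12 was between 0.78 and 0.96 within families and between 0.08 and 0.78 between them, with 0.23 for miR-99b and miR-125a, 0.54 for miR-99a-5p and miR-125b and 0.78 for miR-100 and miR-125b.

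**Figure D5:**
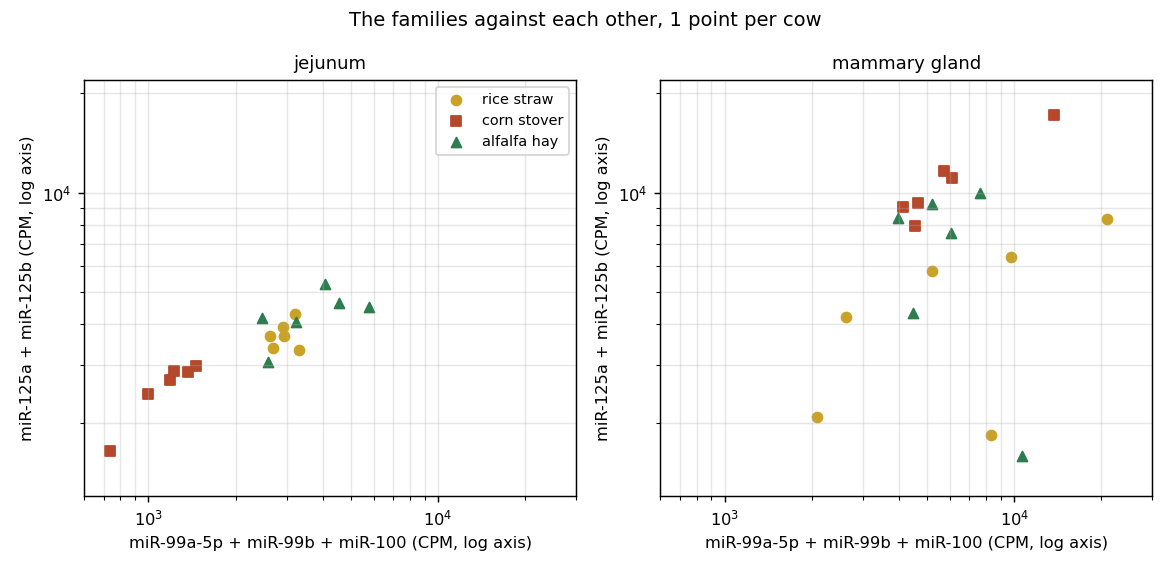
Summed CPM of miR-99a-5p, miR-99b and miR-100 against summed CPM of miR-125a and miR-125b, both on log axes, in jejunum (left) and mammary gland (right), with 1 point per cow and a symbol per diet. In jejunum the cows lie along a line with the corn stover cows at its low end, and in mammary gland they scatter, with the corn stover cows high in the miR-125 family.

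Over the means of the 15 tissue and diet groups, the miRNAs most like each member were sought among the other 288 listed in all tissues. For miR-99a-5p these were miR-2285t (r = 0.87), let-7c (0.85), which comes from its own cluster, and miR-99a-3p (0.85), the other arm of its own hairpin. For miR-125b they were miR-99a-3p (0.84), let-7c (0.84) and miR-99a-5p (0.83), all from the cluster of MIR99A and MIRLET7C. The CPM of miR-125b sums both of its genes, so these values cannot be assigned to MIR125B-2. For miR-100, of the other cluster with a miR-125b gene, the most alike were miR-125b (0.80), miR-1291 (0.76) and miR-99a-5p (0.73). miR-99b was most like miR-1271 (0.92), miR-183 (0.86) and miR-2284y (0.83), and miR-125a most like miR-340 (0.86), miR-1468 (0.85) and miR-500 (0.84). miR-99b and miR-125a, of 1 cluster, had r = 0.81 with each other over these groups, against 0.60 for miR-125a with miR-125b and 0.46 for miR-99b with miR-99a-5p.

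The let-7 miRNAs of the same clusters followed the members in some pairs and tissues and ran against them in others. let-7e had r = 0.70 with miR-125a in duodenum (rho = 0.67) and 0.68 in mammary gland (rho = 0.64), and let-7c had 0.57 with miR-125b in duodenum (rho = 0.53) and 0.56 in jejunum (rho = 0.44). In contrast, over the 18 rumen samples let-7e had r = -0.51 with miR-99b (rho = -0.31) and let-7a-5p had -0.60 with miR-100 (rho = -0.55). In jejunum these were -0.43 (rho = -0.40) and -0.59 (rho = -0.53), while let-7c had 0.43 with miR-99a-5p (rho = 0.18). In mammary gland let-7c had -0.68 with miR-99a-5p (rho = -0.65). The mature let-7a-5p is also made from other genes, so its CPM does not stand for the cluster alone. Of the 9 miRNAs of the let-7 list 1 passed the test of the diets in jejunum, let-7d, higher on corn stover than on alfalfa hay by 0.41 (SE 0.11, limma adjusted p = 0.0234), and none of the 9 passed in the other tissues. Neither of the miR-10 miRNAs passed in any tissue. In the 4 high alfalfa hay rumens let-7e was between 531 and 849 CPM and between 603 and 1273 CPM in the other 14.

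Only 1 of the opposite arms of the members' hairpins was listed, miR-99a-3p, at a mean of 110 ± 36.8 CPM (SD, n = 18) in mammary gland, 56.4 ± 10.3 in liver, 41.4 ± 17.7 in rumen, 15.1 ± 2.37 in duodenum and 14.3 ± 3.68 in jejunum. It was highest in mammary gland and lowest in jejunum, as its 5p arm was, but between cows of 1 tissue both arms did not run in parallel, with r = 0.08 (rho = 0.14) in rumen and -0.42 (rho = -0.37) in mammary gland. In jejunum r was 0.65 (rho = 0.37).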

How the data were processed

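Small RNA libraries of 90 samples were analysed, 5 tissues of 18 cows on 3 diets. The authors removed low-quality reads with CASAVA 1.8, trimmed adaptors and aligned reads to bovine miRNA precursors of miRBase with sRNAbench, allowing mismatches and several mappings per read, and the deposited CPM divide the reads of a miRNA by the reads mapped to all annotated miRNAs. Mapped reads were derived from the smallest step of the CPM in each sample, as whole multiples within 0.01. A count of 3 reads was worth 0.192 to 3.20 CPM.

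The members and lists were chosen with earlier results of these data known. The miRNAs named are the members, their other arms, the let-7 and miR-10 lists, the 3 most like each member, and marker lists. miRNAs with more than 1 CPM in over 50% of samples were fitted on log2(CPM + 1) with limma 3.58.1 in R 4.3.3 (lmFit, eBayes with trend), with Benjamini-Hochberg adjustment over all miRNAs of a fit and a threshold of 0.05. A fold change on this scale is slightly understated. Labels give separate cows as replicates and no batch. The series design gives each cow all 5 tissues, and samples with the same diet and number in their titles were taken as 1 cow. The mean correlation of deviations from the group means between duodenum and jejunum was 0.197 for the same cow and -0.012 for other cows. That pair of tissues was the highest. For the same cow the other pairs ran from 0.016 (rumen and duodenum) to 0.108 (liver and mammary gland), so the matching of cows shows only weakly there. Tables and plots were made with Python 3.11.15, numpy 2.4.6, pandas 2.3.3, scipy 1.17.1 and matplotlib 3.10.9. Alternatives covered the pseudocount, scaling, filter, replicate block, single libraries left out and libraries that stood apart. The last of these, and those without low-depth, low-correlation or high miR-99b libraries, were chosen after seeing the data.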

Additional observations from a re-analysis of the deposited data

Results flagged for a closer look

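In 11 of 75 groups of 6 cows (5 members in 15 tissue and diet groups) the highest or lowest cow lay far from the other 5 by Dixon's criterion. For normally distributed values chance alone marks about 1 in 20. The criterion was applied to CPM without logs, so that rate need not hold here, and members of 1 library are not independent. These 11 values came from 6 libraries.

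Corn stover cow 5 carried 6 of them, in 2 of its tissues. In mammary gland it had 4354 CPM of miR-99a-5p against at most 2087 CPM in the other 5 cows, 4625 CPM of miR-99b against 2326 CPM, 4730 CPM of miR-100 against 1884 CPM, and 9305 CPM of miR-125b against 5059 CPM. In liver it had 1459 CPM of miR-99a-5p against 708 CPM and 3821 CPM of miR-125b against 2196 CPM. This cow was the highest of its group in all 5 members in both tissues.

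Rice straw cow 5 was high in duodenum, with 702 CPM of miR-99a-5p against at most 419 CPM and 1706 CPM of miR-100 against 964 CPM. Alfalfa hay cow 1, whose mammary library had a low correlation with the rest, had 6043 CPM of miR-99a-5p in mammary gland against at most 2529 CPM. miR-125b was low at 831 CPM in the duodenum of alfalfa hay cow 6, against at least 1098 CPM in the other 5, and at 605 CPM in the jejunum of corn stover cow 2, against at least 898 CPM. The latter library also stood apart from the rest of jejunum.

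miR-125a passed the test of diet and tissue over duodenum, liver and mammary gland (limma interaction, adjusted p = 0.00529). Corn stover minus rice straw was -0.48 in duodenum and 1.53 in mammary gland. The fit held no term for the cow and a single variance over tissues of unlike spread, so this p can be too low. miR-125a was 1 of the 5 members to pass, beside 21.0% of the 300 miRNAs tested. It no longer passed with upper-quartile scaling (adjusted p = 0.0702) or without the 6 mammary libraries with a low correlation (0.0707).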

How the results depend on the processing

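Members passing between diets stayed at 0 in duodenum and liver in all alternatives. In jejunum they stayed at 5, beside 80 of 336 miRNAs in the main fit and 67 to 109 miRNAs in the alternatives. In rumen they fell from 2 to 0 without the library that stood apart and without the 4 high miR-99b libraries, and ranged from 0 to 2 with 1 library left out. Since the choice of the members used the jejunum and rumen contrasts, nothing is read from these counts of members. The miRNAs passing in rumen moved from 5 to 8 (filter at a mean of 10 CPM), 3 (replicate block) and 0 in both those exclusions, and from 0 to 27 with 1 library left out. With 1 library left out, 0 to 1 miRNAs passed in duodenum and 0 to 3 in liver, and 1 passed in liver without alfalfa hay cow 2. In mammary gland 12 miRNAs passed, and 0 with a pseudocount of 0.1, 19 with 5, 55 with the replicate block, 0 without the library that stood apart, 32 without low-correlation libraries, 61 without low-depth ones and 0 to 83 with 1 library left out (most without alfalfa hay cow 1). There 1 member, miR-125a, passed with the replicate block, without low-depth libraries and without alfalfa hay cow 1 or rice straw cow 2, 3 or 6 (0 to 1 with 1 library left out). With trimmed-mean scaling jejunum minus duodenum of miR-100 was -0.34. Members with an interaction fell from 1 to 0 with upper-quartile scaling and without low-correlation libraries, and miRNAs from 63 to 38, 25 and, with trimmed-mean scaling, 28.

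Signs turned in differences whose interval held 0. In mammary gland alfalfa hay minus corn stover of miR-100 became 0.43 (upper-quartile) and 0.20 (trimmed-mean), ranging from -0.39 to 0.070 with 1 library left out, and alfalfa hay minus rice straw of miR-99a-5p became -0.0056 (trimmed-mean), -0.084, -0.40 and -0.60 (without the library apart, low-correlation and low-depth libraries), ranging from -0.084 to 0.65, and of miR-99b ranged from -0.45 to 0.20. In liver that of miR-125a became 0.0028 (upper-quartile) and ranged from -0.15 to 0.10. Jejunum minus duodenum became -0.036 for miR-125a and -0.064 for miR-125b (upper-quartile) and -0.0099 for miR-125b (trimmed-mean). The causes were not tested.

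Replicate numbers name different cows on different diets, so the main fits held no block for them. Deviations of same-numbered cows had a mean correlation from -0.047 in jejunum to 0.155 in rumen. The samples closest to their own number were from 2 of 18 in jejunum to 8 of 18 in rumen. Whether cows of 1 number share an effect was not tested. With the cow as a block the number of miRNAs past the threshold between jejunum and duodenum went from 102 to 109. The planned count models (edgeR, DESeq2) were not run, because most files hold too few low values for the check that whole reads were recovered.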

Other observations

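The same cow's liver and mammary gland were compared through deviations from the group means over 18 cows, a description with no test. For the members r was 0.38 for miR-99a-5p, 0.50 for miR-99b, 0.60 for miR-100, 0.50 for miR-125a and 0.48 for miR-125b, while the median over 289 miRNAs was -0.02 and 5% of them lay above 0.48. Without corn stover cow 5 the values over 17 cows were 0.24, 0.42, 0.44, 0.48 and 0.40. Between duodenum and jejunum the miR-125 members had r = 0.48 and 0.53, and the miR-99/100 members between -0.15 and 0.21, beside a median of 0.18 over the 289 miRNAs. The remaining pairs of tissues gave lower values for most members. They ran from -0.34 (miR-125a, duodenum and mammary gland) to 0.37 (miR-99b, jejunum and mammary gland). Between rumen and liver every member was below 0.

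Corn stover cow 5 was also the highest of its group in rumen for 4 of the 5 members, with 4189 CPM of miR-125a against at most 3787 CPM and 2364 CPM of miR-125b against 1548 CPM in the other 5 cows. In duodenum it was the highest in none of them.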
